A study of Homo sapiens with 6 samples.

Results

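Small nucleolar RNA (snoRNA) host genes are genes whose introns carry snoRNAs, and 30 of them were described here out of 58174 genes in the deposited table. They were chosen by name: every gene called SNHG followed by a number, and GAS5, DANCR, ZFAS1, EPB41L4A-AS1, RACK1, TAF1D, NOP56 and NCL. Of these, 26 are noncoding and 4 (RACK1, TAF1D, NOP56 and NCL) encode proteins, and the rule itself uses names and no measured value. The samples were 6 polyA RNA-seq libraries of A549, an established human lung adenocarcinoma cell line, harvested 48 h after seeding. Parental A549 cells (Ctrl, 3 libraries) were compared with A549 cells that had lost the MIR21 gene by CRISPR/Cas9 editing (MIR21-KO, 3 libraries). The MIR21-KO cells were grown from single sorted cells whereas Ctrl cells were the parental population, so differences between clones and effects of the deletion cannot be told apart. The study describes its RNA-seq samples as independent, but the sources do not say how many clones the MIR21-KO libraries represent, and p-values measure the spread between these libraries.

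snoRNAs are short RNAs of the nucleolus that guide chemical modification of ribosomal RNA. Box C/D snoRNAs (SNORD genes) guide methylation, H/ACA snoRNAs (SNORA genes) guide pseudouridylation, and their relatives in Cajal bodies (SCARNA genes) guide modification of spliceosomal RNAs. Most human snoRNAs are cut out of introns after splicing of a host transcript. Host genes of the noncoding kind were named for this cargo: their spliced RNA is often degraded by nonsense-mediated decay (NMD) once it meets the ribosome. Coding hosts include genes for ribosomal proteins, translation factors and nucleolar proteins. Many hosts of either kind start with a 5' terminal oligopyrimidine (TOP) tract, a C followed by a run of pyrimidines, which they share with the mRNAs of ribosomal proteins and which couples translation to growth signals. PolyA libraries are made to capture the host RNA rather than the snoRNA.

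The starts of 11 hosts on which the results turn are shown because the TOP tract is the feature by which such hosts are commonly grouped. Each run covers 20 bases before and 20 bases from the start given by RefSeq (GRCh38.p14), 5' to 3' on the gene's own strand. Capitals mark a tract, taken as a C followed by at least 4 C or T letters that begins within 5 bases of that start. The noncoding hosts come first and the 4 coding hosts last.
SNHG4: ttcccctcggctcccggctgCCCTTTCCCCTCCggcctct
SNHG19: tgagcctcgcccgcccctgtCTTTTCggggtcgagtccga
ZFAS1: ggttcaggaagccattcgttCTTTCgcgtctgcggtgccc
SNHG8: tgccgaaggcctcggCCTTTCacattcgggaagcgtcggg
SNHG5: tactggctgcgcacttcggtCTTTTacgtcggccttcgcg
GAS5: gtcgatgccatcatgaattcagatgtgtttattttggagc
EPB41L4A-AS1: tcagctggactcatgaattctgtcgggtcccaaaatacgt
RACK1: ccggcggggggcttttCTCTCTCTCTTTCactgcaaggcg
TAF1D: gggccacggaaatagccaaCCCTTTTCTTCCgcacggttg
NCL: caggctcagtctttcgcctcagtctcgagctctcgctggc
NOP56: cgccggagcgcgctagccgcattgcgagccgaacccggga

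These runs lie at chr5:139274081-139274120 (SNHG4, plus strand), chr16:2155339-2155378 (SNHG19, minus), chr20:49278622-49278661 (ZFAS1, plus), chr4:118278742-118278781 (SNHG8, plus), chr6:85678714-85678753 (SNHG5, minus) and chr1:173869026-173869065 (GAS5, minus). The others lie at chr5:112160506-112160545 (EPB41L4A-AS1, plus), chr5:181243887-181243926 (RACK1, minus), chr11:93741476-93741515 (TAF1D, minus), chr2:231464465-231464504 (NCL, minus) and chr20:2652612-2652651 (NOP56, plus). SNHG4 carried a tract of 13 bases, as did RACK1, whereas those of ZFAS1 and SNHG5 had 5 bases. A RefSeq window was matched for 25 of the 30 members, and 13 of the 25 held such a tract, beside 21.1% of all 35116 RefSeq windows and 74.4% of 78 windows of ribosomal protein genes. A tract in these letters is a description, and no match says only that the letters are not at this start. For 9 of the 25 members the start in GENCODE 29 is more than 100 bases away from that in RefSeq. Among the runs shown these are GAS5, ZFAS1 and all the coding hosts (RACK1, TAF1D, NCL and NOP56), so whether these carry a tract depends on the start used.

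Levels are given as FPKM, the fragments counted on a gene divided by its length in kilobases and by a library size that the authors set. The reads behind them summed to 10631667 to 14345209 per library and 1 read on 1 kb was worth 0.0731 to 0.0930 FPKM. Intervals given below come from limma and rest on the spread between libraries. Markers of A549 epithelium summed to 1603 to 1717 FPKM in Ctrl and 1134 to 1619 FPKM in MIR21-KO, while leukocyte markers summed to at most 0.369 FPKM and endothelial markers to at most 0.0707 FPKM in any library. Fibroblast markers summed to 3.51 to 3.71 FPKM in Ctrl and 3.98 to 5.25 FPKM in MIR21-KO, and their part in the results was not tested. MIR21 itself was listed at 0 in all 6 libraries, which is no check of the deletion because its transcript is processed to a miRNA. Genes were tested where they averaged 0.5 FPKM or more over the libraries, with limma on log2(FPKM + 0.1), and called at a Benjamini-Hochberg false discovery rate (FDR) under 0.01. Of 16006 genes tested, 16.0% were called, 7.66% higher and 8.38% lower in MIR21-KO.

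Of the 26 noncoding hosts, 23 passed the filter on low values. GAS5 and EPB41L4A-AS1 rose and SNHG4 fell, while the other 20 did not pass the threshold. The 2 called higher are 8.70% of the 23 and the 1 called lower is 4.35%, both close to or below the shares of all genes. Of the 4 coding hosts, all tested, NCL fell. At an FDR under 0.05, 6 noncoding hosts were higher (26.1% of 23, beside 15.2% of all genes) and 3 lower (13.0%, beside 16.8%), whereas 3 coding hosts were lower and 0 higher. The 3 Ctrl and 3 MIR21-KO values did not overlap for 14 of the 23 noncoding and 3 of the 4 coding hosts, beside 48.1% of all genes tested.

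SNHG4 showed the largest difference of the 27 hosts tested. It is the noncoding host of SNORA74A and SNORA74D on the plus strand of chromosome 5 (chr5:139274102-139284899, GENCODE 29 on GRCh38). Its level was 10.2, 10.4 and 11.7 FPKM in Ctrl replicates 1 to 3 and 4.54, 4.50 and 5.24 FPKM in MIR21-KO replicates 1 to 3. Every MIR21-KO library lay below every Ctrl library, and the replicates of each group lay close together. The MIR21-KO mean of 4.76 ± 0.421 FPKM (SD, n = 3) was 0.442 times the Ctrl mean of 10.8 ± 0.780 FPKM (log2 fold change -1.16, SE 0.10, FDR = 4.56e-04 with limma). These values rest on 215 to 307 reads per Ctrl library and 106 to 131 reads per MIR21-KO library. The call was made under each of the 19 alternatives run, with log2 fold changes between -1.23 and -1.03.

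SNHG4 shares 626 exonic bases in GENCODE 29 with 1 of the gene models of its neighbour MATR3 on the same strand. How reads over such shared bases were counted is not stated. That MATR3 row held 0.878, 1.16 and 1.06 FPKM in Ctrl and 0.289, 0.424 and 0.461 FPKM in MIR21-KO (a log2 fold change of -1.21 with an FDR of 0.0171), without overlap. A second MATR3 row, with which SNHG4 shares 0 exonic bases, held 0.273, 0.261 and 0.327 FPKM in Ctrl and 0.152, 0.243 and 0.446 FPKM in MIR21-KO, with overlap. The length listed for SNHG4 in the deposited table was 1926 bases, compared with 4469 exonic bases in GENCODE 29, and for 25 of the 30 members the lengths were equal.

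GAS5, which hosts 10 SNORD genes and 1 SNORA gene of RefSeq on chromosome 1 (chr1:173863900-173868882, minus strand), is known to accumulate when growth or translation stops. Its level was 28.3, 31.1 and 31.4 FPKM in Ctrl and 58.3, 46.7 and 41.9 FPKM in MIR21-KO replicates 1 to 3. All MIR21-KO libraries lay above all Ctrl libraries, but replicate 1 stood well above replicate 3. The means were 30.3 ± 1.71 and 49.0 ± 8.45 FPKM, a ratio of 1.62 (log2 fold change 0.68, SE 0.129, FDR = 0.00885). Left out one at a time, Ctrl replicates 1, 2 and 3 and MIR21-KO replicate 2 each ended this call, with FDRs of 0.0406, 0.0326, 0.0328 and 0.0354, while it held without MIR21-KO replicate 1 (0.00651) or 3 (0.00332). The GAS5 call was also lost with no filter on low values (0.0187) and with limma without trend or robust fitting (0.0199). With replicate numbers as a block the FDR was 0.0337, and 0.019 when GC and length trends were removed as well.

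EPB41L4A-AS1, the host of SNORA13 (chr5:112160526-112164276, plus strand), was at 5.22, 5.17 and 5.49 FPKM in Ctrl and 9.07, 8.11 and 7.70 FPKM in MIR21-KO. The groups did not overlap, with means of 5.29 ± 0.171 and 8.29 ± 0.700 FPKM, and the 3 Ctrl values lay close together. The ratio was 1.57 (log2 fold change 0.64, SE 0.0921, FDR = 0.00318). The call was lost without Ctrl replicate 1 (FDR = 0.0190), 2 (0.0180) or 3 (0.0162) and without MIR21-KO replicate 2 (0.0200). It was also lost with replicate numbers as a block (0.0249). In GENCODE 29, 49.6% of its exonic bases overlap EPB41L4A on the other strand. EPB41L4A was at 0.330 to 0.375 FPKM in Ctrl and 0.117 to 0.171 FPKM in MIR21-KO, below the filter and in the other direction.

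**Figure D1:**
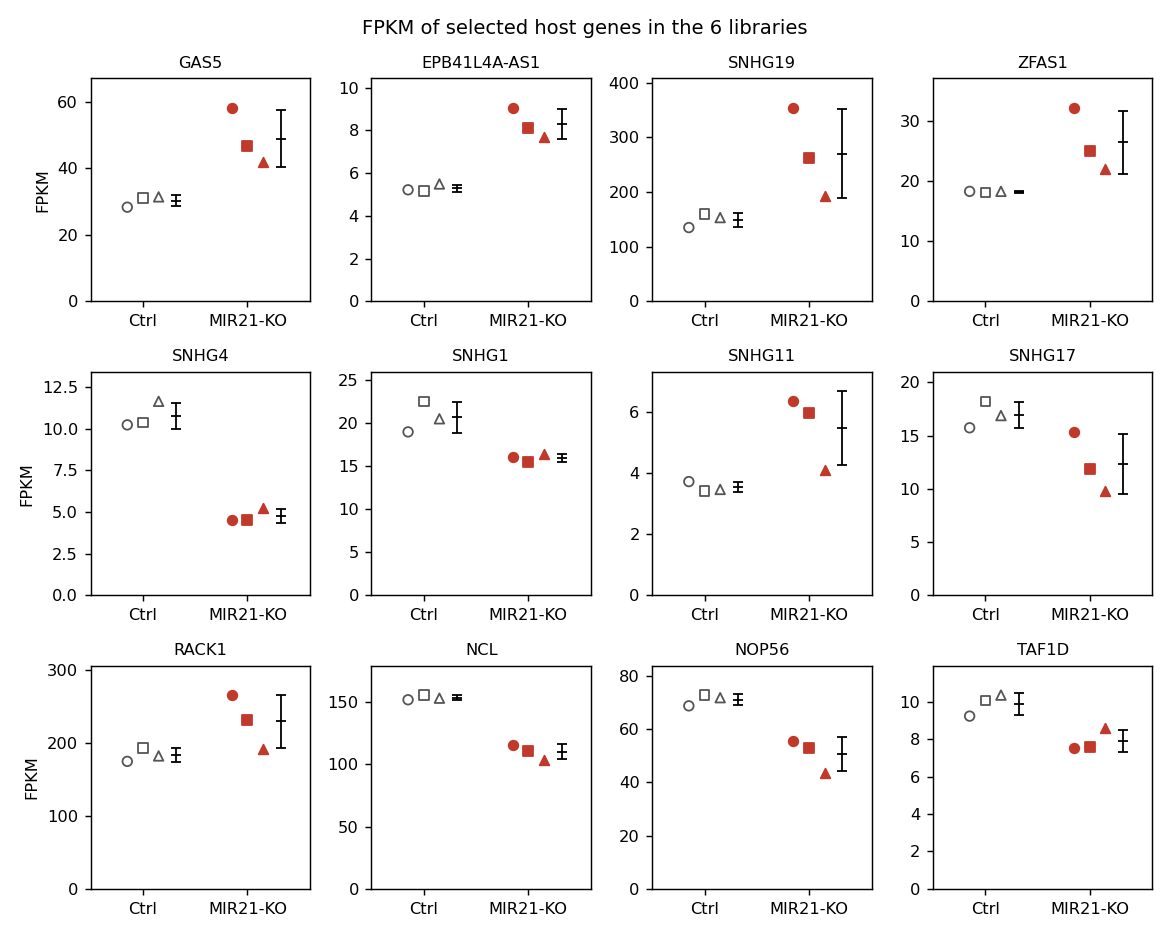
FPKM (vertical axes, from 0, a scale for each gene) of 12 host genes in the 3 Ctrl (open grey) and 3 MIR21-KO libraries (filled red), with replicate 1 as circles, 2 as squares and 3 as triangles, and the mean ± SD in black. SNHG4, SNHG1, NCL, NOP56 and TAF1D lie lower in each MIR21-KO library, while GAS5, EPB41L4A-AS1, SNHG19, ZFAS1 and SNHG11 lie higher with replicate 1 on top.

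Besides GAS5 and EPB41L4A-AS1, 7 noncoding hosts were higher in every MIR21-KO library than in any Ctrl library but were not called at an FDR under 0.01. SNHG19, a short gene with SNORD60 in its intron (chr16:2154797-2155358, minus strand), was the noncoding host with the highest level per length. It was at 135, 159 and 153 FPKM in Ctrl and 354, 263 and 193 FPKM in MIR21-KO. Its ratio of means of 1.81 was the highest among the hosts tested, yet the MIR21-KO libraries ranged so widely (SD 81.0 FPKM) that the FDR was 0.0284 (log2 fold change 0.82, SE 0.215). ZFAS1, which starts next to ZNFX1 on the other strand and hosts 3 SNORD12 genes, was at 18.3, 18.1 and 18.3 FPKM in Ctrl and 32.2, 24.9 and 22.1 FPKM in MIR21-KO (a log2 fold change of 0.52 with an FDR of 0.0294). The SD was 0.122 FPKM over the Ctrl libraries and 5.24 FPKM over the MIR21-KO libraries.

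SNHG8 (host of SNORA24) was at 37.7, 49.7 and 42.8 FPKM in Ctrl and 72.0, 66.3 and 52.5 FPKM in MIR21-KO (a log2 fold change of 0.55 with an FDR of 0.0330). SNHG5 (host of SNORD50A and SNORD50B) was at 110, 128 and 113 FPKM in Ctrl and 195, 164 and 131 FPKM in MIR21-KO (a log2 fold change of 0.46 with an FDR of 0.0599). In both, MIR21-KO replicate 3 lay just above the highest Ctrl library. SNHG11 (log2 fold change 0.59, FDR = 0.0404), SNHG7 (0.42, FDR = 0.0913) and SNHG20 (0.34, FDR = 0.143) likewise did not overlap, with MIR21-KO replicate 1 highest and 3 lowest. Without MIR21-KO replicate 3, SNHG19, ZFAS1, SNHG8, SNHG11, SNHG5 and SNHG7 were called too, and 8 of the 23 noncoding hosts were then called higher, beside 9.99% of all genes. Without any other single library at most 2 were called higher. SNHG7 shares 25.2% of its exonic bases with FAM69B on the other strand.

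On the lower side, SNHG1, with 8 SNORD genes in its introns the classic multi-snoRNA host, was at 18.99, 22.6 and 20.5 FPKM in Ctrl and 16.1, 15.4 and 16.4 FPKM in MIR21-KO. The groups did not overlap and the MIR21-KO libraries had an SD of 0.480 FPKM, with a log2 fold change of -0.37 (SE 0.0840, FDR = 0.0168). SNHG15 (log2 fold change -0.47, FDR = 0.0455), SNHG17 (-0.48, FDR = 0.0657) and SNHG16 (-0.36, FDR = 0.0715) were also lower without overlap. In these 3 the lowest library was MIR21-KO replicate 3, and SNHG17 was called without MIR21-KO replicate 1 (FDR = 0.00904). SNHG16 shares 30.6% of its exonic bases with a gene model on the other strand.

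SNHG17 and SNHG11 are neighbours on chromosome 20, with 11224 bases between them and in opposite orientation, and both host snoRNAs of the SNORA71 group. SNHG17 was at 15.7, 18.2 and 16.9 FPKM in Ctrl and 15.3, 11.9 and 9.78 FPKM in MIR21-KO, whereas SNHG11 was at 3.71, 3.40 and 3.46 FPKM in Ctrl and 6.34, 5.95 and 4.08 FPKM in MIR21-KO. Within each library, the ratio of SNHG11 to SNHG17 was 0.236, 0.187 and 0.205 in Ctrl and 0.414, 0.502 and 0.418 in MIR21-KO. The pair was picked after its values were seen, so this ratio is given with no test.

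In the other 9 noncoding hosts tested the values of the groups overlapped, and each had an FDR over 0.05. SNHG6, a strongly expressed host of SNORD87, was at 70.9 to 80.5 FPKM in Ctrl and 73.9 to 112 FPKM in MIR21-KO (log2 fold change 0.24, 95% interval -0.13 to 0.60). SNHG3 (0.14), SNHG12 (0.06), SNHG9 (0.07), SNHG10 (-0.02), DANCR (-0.12), SNHG14 (0.19) and SNHG25 (-0.12) had log2 fold changes within 0.2 of 0. For DANCR, a long noncoding RNA known for holding back differentiation, the 95% interval ran from -0.42 to 0.18. For SNHG14, the very long host of 83 SNORD genes opposite UBE3A, it ran from -0.29 to 0.67. The intervals of SNHG9 (-0.88 to 1.03) and SNHG25 (-1.29 to 1.04) were wide, with 29 to 82 and 7 to 32 reads per library. SNHG21, with 22 to 43 reads, had a log2 fold change of -0.37 (95% interval -1.09 to 0.35). Such values do not show that the genes were equal.

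The 3 noncoding hosts below the filter were SNHG18, listed at 0 in all 6 libraries, SNHG22 at 0.0595 to 0.287 FPKM (2 to 8 reads) and SNHG23 at 0.0894 to 0.263 FPKM (12 to 36 reads). SNHG23, within which 41 SNORD genes lie, belongs to an imprinted region of chromosome 14. With no filter on low values, limma gave SNHG22 a log2 fold change of -0.42 (95% interval -1.33 to 0.50) and SNHG23 one of 0.38 (95% interval -0.42 to 1.17), and neither was called.

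**Figure D2:**
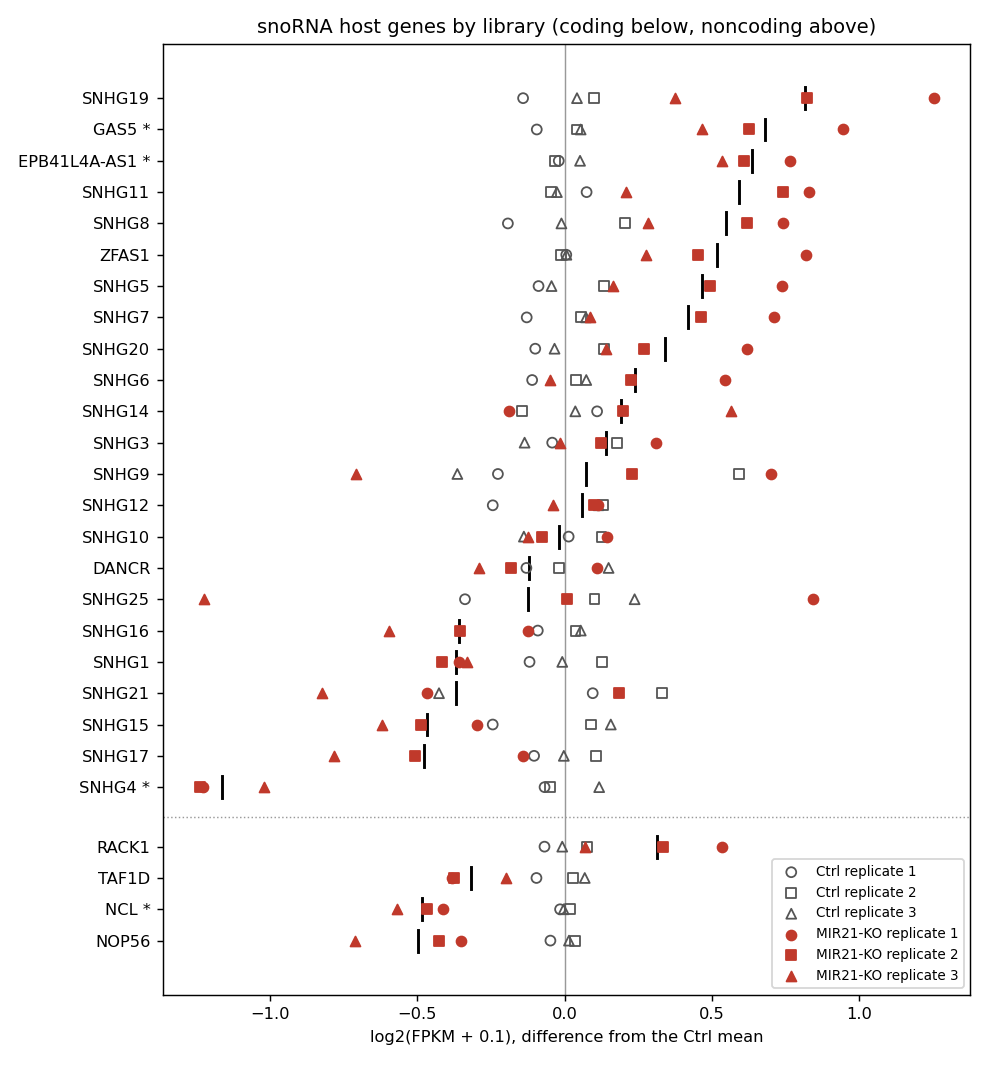
Difference of each library from the Ctrl mean on the log2(FPKM + 0.1) scale (horizontal axis) for the 27 tested hosts, with 23 noncoding hosts above the dotted line and 4 coding hosts below it. Open grey symbols are Ctrl and filled red symbols MIR21-KO libraries, black bars give the mean MIR21-KO difference, and stars mark an FDR under 0.01. In 19 of the 23 noncoding and 3 of the 4 coding hosts MIR21-KO replicate 1 is highest and replicate 3 lowest of the MIR21-KO libraries.

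The 4 coding hosts encode proteins of the nucleolus and the ribosome. NCL encodes nucleolin, an abundant nucleolar protein of ribosomal RNA transcription and processing, and hosts SNORA75, SNORD20 and SNORD82 (chr2:231453531-231483641, minus strand). Its level was 152, 155 and 153 FPKM in Ctrl and 115, 111 and 103 FPKM in MIR21-KO. The groups were well apart, with means of 153 ± 1.90 and 110 ± 6.04 FPKM, a ratio of 0.716 (log2 fold change -0.48, SE 0.0772, FDR = 0.00455). The call was lost without Ctrl replicate 1 (FDR = 0.0266), 2 (0.0273) or 3 (0.0290) and without MIR21-KO replicate 2 (0.0296). It was also lost with limma without trend or robust fitting (0.0105) and with replicate numbers as a block (0.0375, or 0.0179 with GC and length trends removed).

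NOP56 encodes a core protein of box C/D snoRNPs, the particles in which SNORD RNAs act, and itself hosts 4 SNORD genes and 1 SNORA gene (chr20:2652145-2658393, plus strand). It was at 68.7, 72.8 and 71.8 FPKM in Ctrl and 55.7, 52.9 and 43.4 FPKM in MIR21-KO. The groups did not overlap, and the log2 fold change of -0.50 (SE 0.107, FDR = 0.0138) missed the threshold. NOP56 was called without MIR21-KO replicate 1 (FDR = 0.00928) or 3 (0.00469). Without Ctrl replicate 1, 2 or 3 or MIR21-KO replicate 2 its FDR was 0.0452, 0.0558, 0.057 and 0.0451 in that order. TAF1D, a subunit of the factor that brings RNA polymerase I to ribosomal DNA, hosts 8 snoRNA genes. It was at 9.24, 10.1 and 10.4 FPKM in Ctrl and 7.55, 7.59 and 8.60 FPKM in MIR21-KO, without overlap (log2 fold change -0.32, SE 0.0905, FDR = 0.0357). Over the alternatives run, the log2 fold change of TAF1D lay between -0.38 and -0.15. It was weakest with GC and length trends removed (-0.15, FDR = 0.34 with limma).

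RACK1, a scaffold protein of the small ribosomal subunit with SNORD95 and SNORD96A in its introns, differed in direction from the other coding hosts. It was at 174, 193 and 182 FPKM in Ctrl and 265, 231 and 192 FPKM in MIR21-KO. The groups overlapped, since MIR21-KO replicate 3 lay just below Ctrl replicate 2, and the log2 fold change was 0.31 (SE 0.130, FDR = 0.114). With 12433 to 21639 reads per library, counting error is small beside this spread.

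Between the kinds of host, the median log2 fold change was 0.14 over the 23 noncoding and -0.40 over the 4 coding hosts, beside -0.02 over all 16006 genes. These are descriptions of lists of unequal size, and with 4 coding hosts the median rests on NCL, NOP56 and TAF1D. Taken library by library, the median difference of the coding hosts from the Ctrl mean was -0.37, -0.40 and -0.38 in MIR21-KO replicates 1, 2 and 3. That of the noncoding hosts was 0.54, 0.20 and -0.04, so the gap between the medians was present in each MIR21-KO library but varied in size. The even coding median does not mean that each coding host was even across these libraries. From MIR21-KO replicate 1 to 3, RACK1 (265 to 192 FPKM), NCL (115 to 103 FPKM) and NOP56 (55.7 to 43.4 FPKM) fell, while TAF1D rose (7.55 to 8.60 FPKM). In the Ctrl libraries both medians lay within 0.10 of 0.

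The order of the MIR21-KO libraries in most noncoding hosts was also that of ribosomal protein mRNAs. In 19 of the 23 noncoding hosts (82.6%) MIR21-KO replicate 1 was the highest and replicate 3 the lowest of the 3 MIR21-KO libraries, beside 32.04% of all genes tested. The same held for 78 of the 79 cytosolic ribosomal protein genes (98.7%), whose median differences were 0.63, 0.35 and 0.00 in MIR21-KO replicates 1, 2 and 3. It was not limited to genes that rose, since SNHG15, SNHG16 and SNHG17, which were lower in MIR21-KO, had this order too. So did 3 of the 4 coding hosts (75%) and 11 of 18 snoRNP core and assembly genes (61.1%). Among the further annotated hosts described below, it was seen in 73 of 191 protein-coding hosts (38.2%) and 3 of 9 hosts of other types (33.3%). Without their ribosomal protein genes, the protein-coding hosts had it in 45 of 163 (27.6%). The order was thus not general to snoRNA hosts. In the RNA polymerase I and NMD lists described below, 5 of 15 genes each had it (33.3%). Over all libraries 73 of the 79 ribosomal protein genes were higher in MIR21-KO on average, with a median of 0.32 over the 79 on the log2 scale. Of the 79, 1 was called higher (1.27%, beside 7.66% of all genes): RPL28 (log2 fold change 0.89, FDR = 0.00826). RPL31 (0.81, FDR = 0.0104) and RPL3 (0.61, FDR = 0.0148) came next by p. Without MIR21-KO replicate 3, 28 of the 79 were called, all higher, and without any 1 of the Ctrl libraries or MIR21-KO replicate 2, 0 were (10, 13, 11 and 9 at an unadjusted p under 0.05 in that order). With voom on the recovered reads and all libraries, 8 of the 79 were called, beside 3496 of all 16006 genes.

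MIR21-KO replicate 1 was also the library with the most reads (14345209) and the lowest ratio of the authors' library size to its reads (0.950), while replicate 3 had the highest ratio (1.03). The part of library size or RNA composition in this pattern was not tested. The median of the noncoding hosts was 0.10 with scaling by total reads and 0.12 with trends on GC content and gene length removed. In bulk libraries, fewer cells of a kind and less RNA per cell cannot be told apart.

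**Figure D3:**
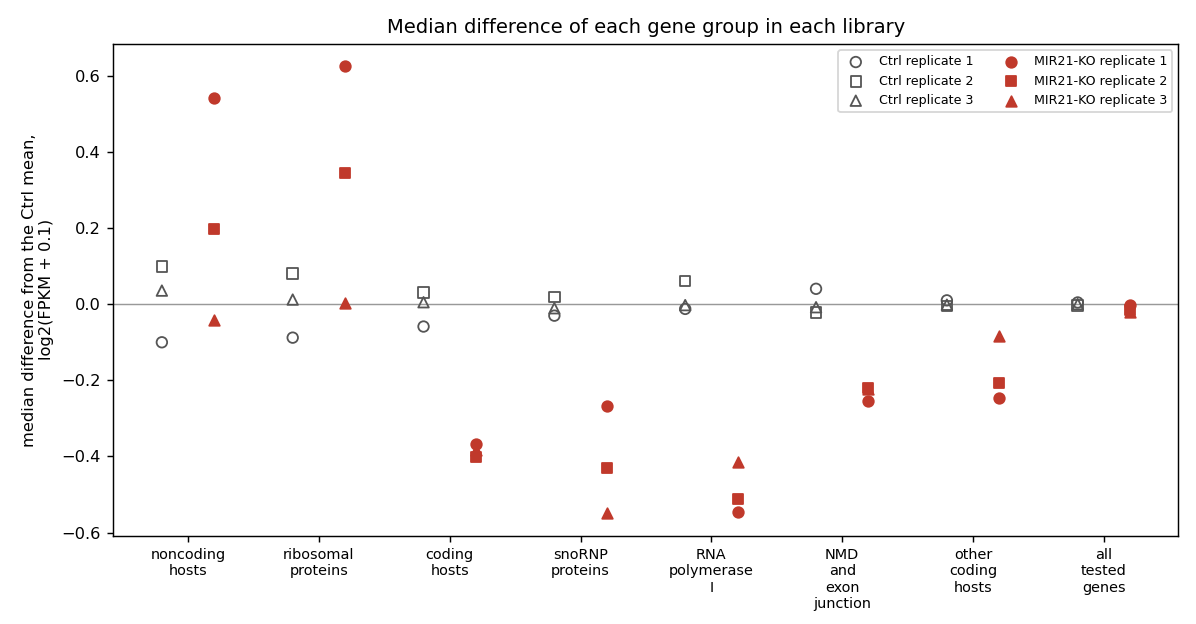
Median difference from the Ctrl mean on the log2(FPKM + 0.1) scale (vertical axis) of 8 gene groups in each Ctrl (open grey) and MIR21-KO library (filled red). Medians of noncoding hosts and ribosomal proteins spread from 0.54 to -0.04 and from 0.63 to 0.00 among the MIR21-KO libraries. The median of the coding hosts lies at -0.37 to -0.40.

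A tract matched in letters at the RefSeq start did not sort the 19 tested noncoding hosts with a window by direction. Of 10 tested noncoding hosts with a tract, 6 had a positive and 4 a negative log2 fold change, from -1.16 (SNHG4) to 0.82 (SNHG19), with a median of 0.24. Of 9 without one, 6 were positive and 3 negative, from -0.37 to 0.68 (GAS5), with a median of 0.19. Among the coding hosts, RACK1 and TAF1D carried a tract at this start and lay in opposite directions. The GENCODE start lay 163 bases from the RefSeq start for GAS5, 464 for ZFAS1 and 1259 for SNHG12. It lay 1927 bases away for SNHG20 and 154975 for SNHG14. For these hosts and the coding hosts, the grouping by tract depends on the start used. Whether tracts at other starts go with direction was not tested. As the runs above show, SNHG4, with its tract of 13 bases starting at the RefSeq start, was the host with the largest fall.

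Some snoRNA host genes now named SNHG are listed in the table under older symbols and are not counted among the 30. The official gene names gave 7 of them, SNHG26 to SNHG32, and 5 passed the filter. SNHG29 (listed as LRRC75A-AS1, chr17:16438822-16478678) was at 122, 135 and 130 FPKM in Ctrl and 320, 275 and 214 FPKM in MIR21-KO. It rose without overlap, by a log2 fold change of 1.05 (SE 0.152, FDR = 0.00327), more than any noncoding host among the 30, and MIR21-KO replicate 1 was again the highest. The call was lost without Ctrl replicate 1 (FDR = 0.0198), 2 (0.0159) or 3 (0.0188) and without MIR21-KO replicate 2 (0.0216). It was also lost with replicate numbers as a block (0.0149). SNHG32 (listed as C6orf48) was at 5.58, 4.44 and 6.13 FPKM in Ctrl and 14.8, 10.1 and 5.31 FPKM in MIR21-KO (a log2 fold change of 0.78 with an FDR of 0.136). SNHG28 (0.95, FDR = 0.0633), SNHG26 (-0.25, FDR = 0.476) and SNHG30 (-0.29, FDR = 0.177) were not called, and SNHG27 was listed at 0.

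GENCODE 29 places a snoRNA gene on the same strand inside 294 further genes of the table, of which 200 were tested. Of 191 protein-coding hosts tested, 12 were higher (6.28%, beside 7.66% of all genes) and 28 lower (14.7%, beside 8.38%), with a median log2 fold change of -0.19. Together with the hosts of other types, 43 of the 200 were called, beside 2568 of all 16006 genes. The number was 9 without any 1 of Ctrl replicates 1, 2 and 3, beside 895, 922 and 873 of all genes. It was 8 without MIR21-KO replicate 2 (beside 768) and 71 without MIR21-KO replicate 3 (beside 3400). Among the 191, the 28 ribosomal protein genes had a median of 0.35, with 0 called by limma. Of these 28, 12 had an unadjusted p under 0.05 with limma and 4 were called with voom, beside 6910 and 3496 of all 16006 genes. The other 163 had a median of -0.25 and held the 12 higher and 28 lower calls. This split was made after the values were seen. Among all these hosts the largest rises without overlap were those of P4HA3, which encodes a collagen prolyl hydroxylase subunit (5.08 to 28.6 FPKM on average, log2 fold change 2.48), MAGED4 (1.52) and CHRFAM7A (1.34). The largest falls were those of PTPRM, a receptor tyrosine phosphatase (6.78 to 3.27 FPKM, log2 fold change -1.04), NDC1, a nuclear pore protein (-0.89), and WDR43, a factor of small subunit processing (-0.85). The FDRs of these 6 genes were 2.50e-05 to 0.00870. P4HA3 and MAGED4 were called without any single library. PTPRM, NDC1 and WDR43 lost the call without any 1 of the Ctrl libraries or MIR21-KO replicate 2 (FDRs of 0.0118 to 0.0163, 0.0106 to 0.0137 and 0.0122 to 0.0158). CHRFAM7A, at 0.321 to 0.425 FPKM in Ctrl and 0.945 to 1.21 FPKM in MIR21-KO, lost it without any single library (FDRs of 0.0211 to 0.0466), and its log2 fold change was 0.61 with a pseudocount of 1.

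Of 44 further hosts of other types, only 9 passed the filter. Of these 9, 3 were called, all higher (33.3%, beside 7.66% of all genes). They are SNHG29, UBA6-AS1 (log2 fold change 1.08, FDR = 0.00102) and MIR31HG (0.87, FDR = 0.00120), the host of another miRNA. UBA6-AS1 lost its call without MIR21-KO replicate 2 (FDR = 0.0102). These 3 were named after their values were seen. The median over the 9 was 0.45.

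**Figure D4:**
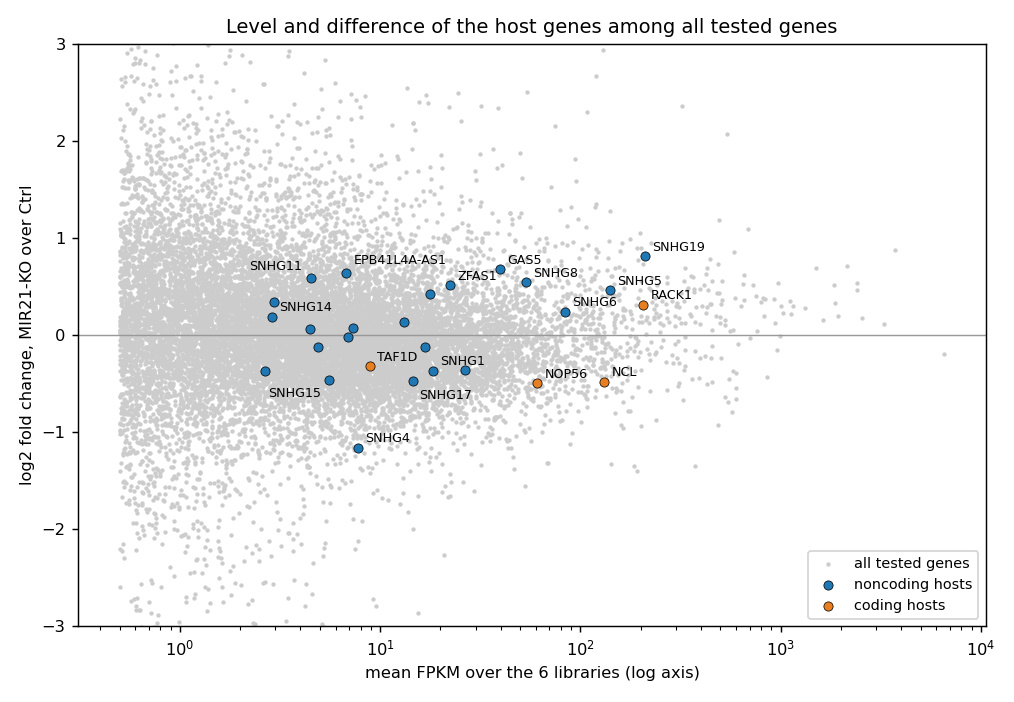
Log2 fold change of MIR21-KO over Ctrl (vertical axis, cut at -3 and 3, with 106 tested genes outside) against the mean FPKM over the 6 libraries (log axis) for all 16006 tested genes in grey, noncoding hosts in blue and coding hosts in orange. SNHG4 lies at -1.16 below the other hosts, and SNHG19 and GAS5 at 0.82 and 0.68 lie at the top.

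Among genes listed for the proteins that assemble snoRNAs into particles, those called were lower. The list also holds the nucleolar proteins TCOF1 and NOLC1. This and the other gene lists were chosen with earlier results of these data known. Of 18 snoRNP core and assembly genes, all tested, 5 fell and 0 rose (27.8% lower, beside 8.38% of all genes), with a median log2 fold change of -0.42. TCOF1 and NOLC1, the nucleolar proteins treacle and Nopp140, had log2 fold changes of -0.79 (FDR = 5.23e-04) and -0.83 (FDR = 5.31e-04), and DKC1, the pseudouridine synthase of H/ACA snoRNPs, one of -0.72 (FDR = 5.99e-04). NOP58, the partner of NOP56 in the box C/D particle, was at 37.6, 40.6 and 38.8 FPKM in Ctrl and 26.5, 26.4 and 23.3 FPKM in MIR21-KO (a log2 fold change of -0.62 with an FDR of 0.00203), and RUVBL1 had a log2 fold change of -0.58 (FDR = 0.00328). Thus TCOF1, NOLC1, DKC1, NOP58 and RUVBL1 shared the direction of NOP56 and NCL. The number called was 3 without any 1 of the Ctrl libraries or MIR21-KO replicate 2, and 6 or 7 without MIR21-KO replicate 1 or 3.

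RNA polymerase I transcribes the ribosomal RNA that snoRNAs modify. Of 15 tested genes for its subunits and factors 6 fell and 0 rose (40% lower, beside 8.38% of all genes), with a median log2 fold change of -0.50, while 3 of the 15 had a positive value. The smallest p-values were those of CD3EAP (-0.72, FDR = 0.00127), POLR1E (-0.56, FDR = 0.00318) and TBP (-0.51, FDR = 0.00446), of which TBP also serves the other nuclear polymerases. Also called were POLR1B, TWISTNB and NPM1, of which NPM1 is no subunit of the polymerase. The count of 6 fell to 1 without Ctrl replicate 1 or 2 or MIR21-KO replicate 2. It fell to 0 with limma without Ctrl replicate 3 (11 at an unadjusted p under 0.05), and it was 9 with voom and all libraries.

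Factors of NMD and the exon junction complex, which set the stability of many noncoding host RNAs, had a median of -0.26 over 15 genes. With limma 0 were called, and 6 had an unadjusted p under 0.05, beside 6910 of all 16006 genes. With voom on the recovered reads 2 were called, beside 3496 of all genes. MAGOHB (log2 fold change -0.47, FDR = 0.0108), UPF2 (-0.56, FDR = 0.0118) and SMG5 (-0.28, FDR = 0.0222) had the smallest p-values. The values of the groups did not overlap for 8 of the 15 genes (53.3%, beside 48.1% of all genes tested), these 3 among them.

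miR-21-5p, which the deleted gene encodes, pairs with targets through its seed (bases 2 to 8, in capitals in the RefSeq sequence), and the complement of the seed in a transcript is the heptamer ATAAGCT. It occurred once in the longest GENCODE 29 transcript of 3 of the 30 members, shown with the heptamer in capitals. The first line is the miRNA.
hsa-miR-21-5p: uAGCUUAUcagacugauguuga
SNHG17: ctttcttagagATAAGCTgctatttcattc
SNHG12: gggcggcctatATAAGCTcttgctcgcggc
NCL: gtgatacttggATAAGCTtagaaggaaacg

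In comparison, 4.50% of 2557 tested long noncoding genes and 15.3% of 11706 tested protein-coding genes held the heptamer in their longest transcript. The heptamer of SNHG12 starts at position -27 from the RefSeq start, outside the RefSeq transcript. The 3 members with the heptamer had log2 fold changes of -0.48 (SNHG17), 0.06 (SNHG12) and -0.48 (NCL), and of the 3 NCL was called, as lower. SNHG4, GAS5 and EPB41L4A-AS1 held 0 heptamers. A match is a description and not a site of binding.

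The snoRNAs themselves were hardly covered. Of 176 snoRNA genes that GENCODE 29 places inside the noncoding hosts, 41 had any read. They had 135 to 196 reads per library in all, compared with 15356 to 25505 reads per library on the host genes. Within the coding hosts 4 of 18 snoRNA genes had reads, 4 to 11 per library. In 21 of the 30 members a snoRNA or SCARNA gene lies over an annotated exon of the host. How reads over such bases were counted is not stated, so host levels may include them. Levels of the snoRNAs were therefore not compared.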

How the data were processed

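The data were polyA RNA-seq of A549 cells, with 3 Ctrl and 3 MIR21-KO libraries. Titles of the samples gave the group and the replicate number. Libraries were strand-specific per the labels. The submitters' processing notes name cutadapt 1.14, HISAT2 2.1.0, SAMtools 1.5, featureCounts 1.5.3, edgeR 3.18.1 and the build hg38. The annotation release and the handling of strand and of reads shared between genes are not given in the sources used here. The authors deposited FPKM values per gene with the gene length, and their own log2 fold changes, p-values and FDRs, which were not used. FPKM times gene length gave whole reads (within 0.01) for 100% of values, and the implied library sizes equalled the read sums times TMM factors.

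FPKM were tested by limma 3.58.1 in R 4.3.3 on a log2 scale with a pseudocount of 0.1, with trended and robust eBayes, no covariate, two-sided tests and Benjamini-Hochberg adjustment over all 16006 genes. No negative binomial model was fitted. The fold change on this scale understates changes of low genes. All members, further hosts and pathway lists were described by counts and medians, with values for each member past the filter, the 3 smallest p-values of each list and the 3 largest rises and falls among further hosts. Members and lists were chosen with earlier results of these data known. Coordinates and overlaps came from GENCODE 29, which matched 99.42% of gene identifiers, and small RNAs inside members from RefSeq. POLR1F, POLR1G and POLR1H were matched under their older symbols. In Ctrl and MIR21-KO libraries with the same replicate number, deviations from group means correlated at -0.17, -0.02 and -0.02. Alternatives were other pseudocounts, filters and scalings, voom on recovered reads, removal of GC and length trends (lowess with a span of 0.3), a replicate block, an FDR of 0.05 and leaving out each library. Plots were made in Python 3.11.15 with matplotlib 3.10.9.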

Additional observations from a re-analysis of the deposited data

How the results depend on the processing

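The number of all genes called was 651 when replicate numbers were used as a block, 3954 with GC and length trends removed and 5114 with an FDR under 0.05, and it ranged from 768 to 3400 when single libraries were left out (lowest without MIR21-KO replicate 2, highest without MIR21-KO replicate 3). The noncoding hosts called higher numbered 1 with no filter on low values, 1 with limma without trend or robust fitting, 0 with the replicate block, 5 with GC and length trends removed, 1 with these removed together with the replicate block, 6 with an FDR under 0.05 and 0 to 8 with single libraries left out. Those called lower numbered 3 with an FDR under 0.05 and 1 to 2 with single libraries left out. The coding hosts called were 2 with a mean of at least 5 FPKM, 2 with scaling by total reads, 2 with voom on recovered reads, 2 with GC and length trends removed and 3 with an FDR under 0.05. They were 0 with limma without trend or robust fitting and 0 with the replicate block, also with trends removed, and 0 to 2 with single libraries left out. The median of the coding hosts was -0.44 with scaling by total reads, -0.31 with GC and length trends removed (with or without the block), and -0.43 to -0.38 with single libraries left out. That of the noncoding hosts stayed positive, 0.05 to 0.38 with single libraries left out. Further annotated hosts called numbered 5 with the replicate block, 65 with trends removed, 81 with an FDR under 0.05 and 8 to 71 with single libraries left out. Ribosomal proteins called were 0 with no filter, 2 with a mean of at least 5 FPKM, 2 with median-ratio scaling, 5 with total reads, 0 without trend or robust fitting, 0 with the replicate block, 8 with voom, 9 with trends removed, 10 with an FDR under 0.05 and 0 to 28 with single libraries left out. The snoRNP proteins called were 2 with the replicate block, 9 with trends removed, 10 with an FDR under 0.05 and 3 to 7 with single libraries left out. The NMD factors called were 2 with a mean of at least 5 FPKM, 2 with voom, 2 with trends removed, 4 with an FDR under 0.05 and 0 to 1 with single libraries left out. The RNA polymerase I genes called were 0 with the replicate block, 3 with trends removed together with the block, 11 with an FDR under 0.05 and 0 to 9 with single libraries left out. The log2 fold change turned sign for 4 uncalled hosts. It was -0.062 for SNHG9 and -0.019 for SNHG12 with trends removed, with or without the block. With single libraries left out it ranged from -0.24 to 0.46 for SNHG9, from -0.064 to 0.12 for SNHG12, from -0.61 to 0.43 for SNHG25 and from -0.10 to 0.043 for SNHG10. The replicate numbers did not pair the libraries, and with the block SNHG4 (FDR = 0.00449) was the one member called. Leaving out 1 library also takes away a degree of freedom, and otherwise the cause of these moves was not tested. Depth limits SNHG9, SNHG21 and SNHG25, with under 100 reads per library.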
